A study of Saccharomyces cerevisiae with 36 samples.

Results

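The proteasome genes of budding yeast (Saccharomyces cerevisiae) and their transcription factor gene RPN4 are described here across mutants of cytoplasmic RNA decay. The 33 members are the 14 genes of the 20S core particle (the PRE and PUP genes and SCL1), 18 genes of the 19S regulatory particle (the RPT and RPN genes) and RPN4 (YDL020C), found by systematic name among 5798 genes in a table of 9765 features. Below, subunits are the 32 members without RPN4. The lid protein gene SEM1 is not among them and is described with the proteasome-associated genes. RNA-seq was made from 32 libraries in 16 groups of 2 biological replicates, as the series calls them, and capped 5' ends were mapped by CAGE in 4 further samples.

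The mutants were xrn1 deletions, which lack the exonuclease that degrades decapped RNA from its 5' end, in S288C (strain YAM6, wild type YAM1), W303 (YAM97, wild type YAM92), haploid SK1 (YAM2087, wild type YAM1977) and diploid SK1 (YAM2068, homozygous, wild type YAM2067, group names with SK1_2n). The others, both in S288C, were dcp2-7 at 37 °C (YAM2283, a conditional allele of the decapping enzyme gene, set against YAM1 at 37 °C, the group WT_37C) and a upf1 deletion (YAM202, without the helicase of nonsense-mediated decay, set against its own YAM1 group, WT_UPF1). These 12 groups were made from rRNA-depleted RNA. The xrn1 and dcp2-7 groups of S288C and their wild types were also sequenced after Terminator treatment, used in place of RiboMinus depletion per the labels. Libraries called untreated below are the rRNA-depleted ones of the same groups. The Terminator enzyme digests RNA that starts with a monophosphate and spares capped RNA. For CAGE, mid-log cultures of dcp2-7 and wild type in YPD medium were kept at 37 °C for 2 h. Each mutant is 1 strain, so strain and mutation cannot be told apart.

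The 26S proteasome degrades proteins tagged with ubiquitin. Its 20S core is a barrel of alpha and beta rings with the proteolytic sites inside, and the 19S particle recognises, unfolds and deubiquitinates substrates through a base with a ring of ATPases and a lid. In yeast the transcription factor Rpn4 activates the subunit genes through a promoter element called PACE and is itself a short-lived proteasome substrate, so that the supply of subunits follows the capacity of the proteasome.

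Depth on annotated features was 11021562 to 68466587 reads in rRNA-depleted libraries and 13208233 to 23350952 in Terminator libraries, and a member had between 244 and 32158 reads in a library. The authors' values are read densities scaled to equal snoRNA reads, called the deposited scale here. On it most mRNAs moved together in several mutants, so changes were also taken on the mRNA-median scale, where every library has the same median mRNA. All changes are log2 values with a moderated standard error (SE) from limma, with p-values adjusted by Benjamini-Hochberg over all features, and a member rose or fell where the adjusted p was under 0.05. The labels held for the deleted genes, since on the deposited scale XRN1 fell by 7.43, 7.32, 6.73 and 5.51 in the xrn1 cells of S288C, W303, SK1 and SK1_2n, and NAM7, which encodes Upf1, fell by 6.41 in upf1 cells. DCP2 was 0.68 higher in dcp2-7 cells (SE 0.127), which checks nothing since the allele keeps the gene.

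Most subunit promoters share an element that RPN4 lacks. The PACE letters GGTGGCAAA, on either strand, were present within 250 bases before to 50 bases after the start codon in 27 of the 32 subunit genes (84.4%) and in 71 of 5738 genes (1.24%). The 71 include the 27. PACE is known as the element through which Rpn4 activates the subunit genes, so its frequency among them is a description and no test. Counted from the start codon, the first base of the site lay between positions -183 and -84, with 19 sites on the coding strand and 8 on the other. The following windows of the R64 assembly, written in the direction of the gene with the PACE letters in capitals, show it for subunits that the results below turn on.
PRE7 (chr2:141145-141183, plus strand): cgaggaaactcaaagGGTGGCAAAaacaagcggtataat
RPT2 (chr4:437901-437939, plus strand): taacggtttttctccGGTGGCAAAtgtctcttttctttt
RPN1 (chr8:164833-164871, minus strand): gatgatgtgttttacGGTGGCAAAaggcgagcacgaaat
RPN9 (chr4:1322081-1322119, plus strand): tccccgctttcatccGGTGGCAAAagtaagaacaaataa
RPT4 (chr15:813797-813835, minus strand): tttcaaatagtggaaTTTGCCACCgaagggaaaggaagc
SCL1 (chr7:475332-475370, minus strand): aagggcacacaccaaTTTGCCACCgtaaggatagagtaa

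The bases on both sides of PACE differ from gene to gene, and in RPT4 and SCL1 the element reads on the other strand. Of the 5 subunit genes without these letters, PRE5, PUP1 and RPN8 have AGTGGCAAA, with the first base changed, which 43 of the 5738 promoters hold (0.749%). The ubiquitin receptor genes RPN10 and RPN13 have neither form in this window, and neither does RPN4. With the first 250 bases alone the count for the subunits was again 27, against 67 of all genes (1.17%).

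RPN4 differs from the subunits upstream of its start. Background known from yeast names the heat shock factor Hsf1, the oxidative stress factor Yap1 and the drug resistance factors Pdr1 and Pdr3 as activators of its transcription. The 500 bases before its start are shown because they carry letters of elements for these factors, which most promoters of all genes lack, as most subunit promoters do. In capitals are the heat shock element (TTC, GAA and TTC in this order with 2 bases of any kind between neighbours), the Yap1 element TTACTAA and a form of the Pdr1 and Pdr3 element, TCCGTGGA. All were searched on both strands.
RPN4 upstream, far part (chr4:416959-417208, minus strand): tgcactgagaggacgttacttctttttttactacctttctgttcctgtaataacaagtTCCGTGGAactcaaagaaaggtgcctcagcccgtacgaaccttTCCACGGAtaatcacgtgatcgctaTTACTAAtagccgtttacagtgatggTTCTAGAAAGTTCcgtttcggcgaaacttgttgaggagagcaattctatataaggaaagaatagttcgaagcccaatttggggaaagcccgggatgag
RPN4 upstream, near part (chr4:416709-416958, minus strand): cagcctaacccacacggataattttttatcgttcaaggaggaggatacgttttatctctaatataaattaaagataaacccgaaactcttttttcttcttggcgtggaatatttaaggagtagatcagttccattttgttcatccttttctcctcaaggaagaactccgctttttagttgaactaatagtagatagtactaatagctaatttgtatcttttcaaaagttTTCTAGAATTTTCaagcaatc

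Upstream of RPN4 the heat shock elements begin at positions -348 and -21 the Yap1 element at -374, and the Pdr1 and Pdr3 element at -442 and, on the other strand, at -399. In windows of 500 bases before to 50 after the start, a size chosen after the data were seen, the heat shock element letters are in 85 of 5738 promoters (1.48%) and in 0 of the 32 subunit promoters. The Yap1 letters are in 713 promoters (12.4%), 5 of them of subunits (15.6% of subunits). The Pdr1 and Pdr3 letters TCCGTGGA, a form added after the data were seen, are in 66 (1.15%), 0 of them of subunits. Another form of that element, TCCGCGGA, is in 38 promoters (0.662%) and in this exact form not in the RPN4 window. The element tolerates other letters too, which were not searched.

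CAGE gives the place of transcription starts relative to these elements. Each list of capped ends was pooled over replicates by the authors, so it gives positions and counts without an error. From 200 bases upstream to the gene end, 32 of 33 members had a capped end in the dcp2-7 list and in the wild-type list, against 77.3% and 76.5% of 5775 genes. RPN4 was the member without one, and its only capped end within 500 bases lay 245 bases before the start in both lists. The CAGE comparisons with all genes, here and below, were not matched for expression level. The subunits' nearest upstream end in wild type lay between positions -118 and -6. In all 27 subunit genes with PACE the element was upstream of that end, by 47 to 101 bases with a median of 74. The same comparison in RPN4 puts 1 heat shock element, the Yap1 element and both Pdr1 and Pdr3 elements upstream of the capped end and the other heat shock element inside the leader.

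**Figure D1:**
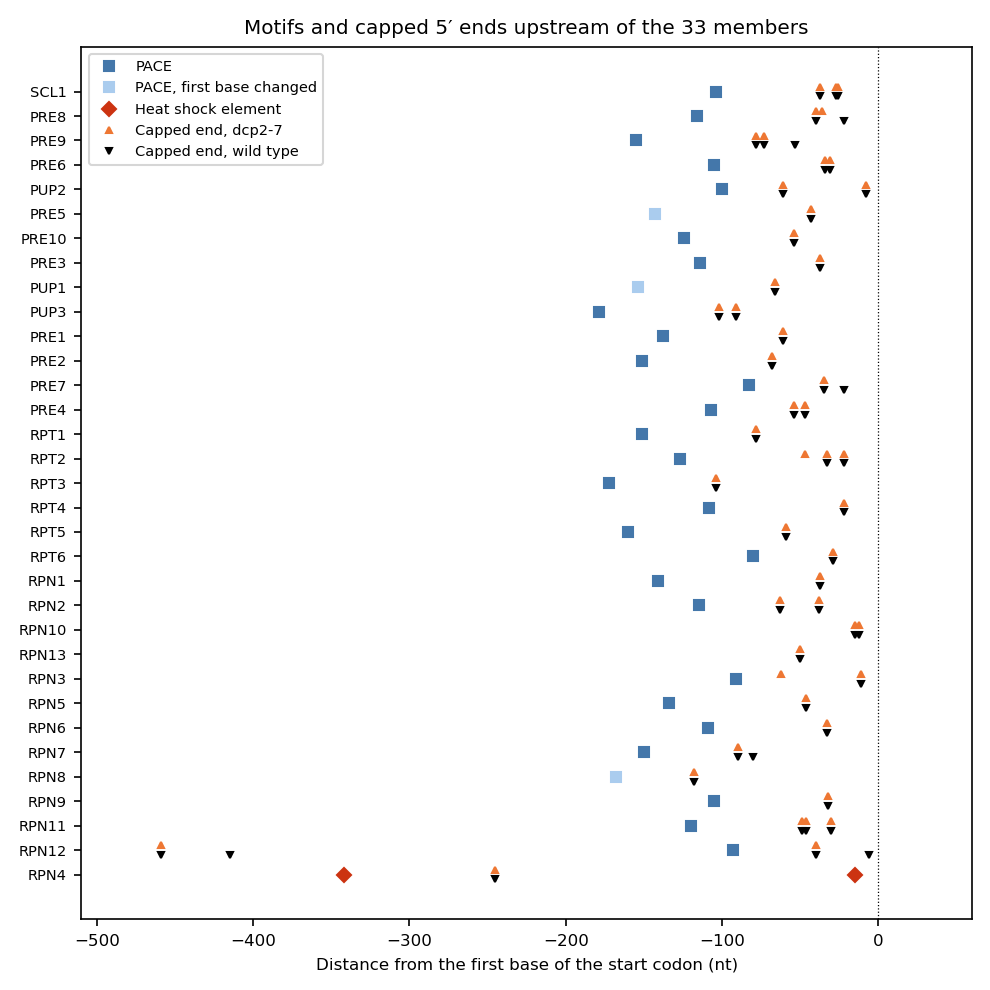
Distance from the first base of the start codon, in nucleotides, of the PACE element, its form with the first base changed, the heat shock element and capped 5' ends (dcp2-7 above, wild type below) for the 33 members, ordered by role. PACE stands upstream of the nearest upstream wild-type capped end in 27 rows. RPN12 also has capped ends upstream of its PACE, the farthest 459 bases before the start. RPN4, at the bottom, has its capped end 245 bases before the start.

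The dcp2-7 and wild-type lists shared most of the members' ends. Over the members 44 positions were in both lists, 3 were in the dcp2-7 list alone (in PRE8, RPN3 and RPT2) and 5 in the wild-type list alone. The shared positions were 93.6% of the members' dcp2-7 positions and 89.8% of their wild-type positions, against 83.1% and 83.7% over all genes in the same window, a difference that was not tested. All 32 members with ends shared at least 1, against 86.6% of the 4695 genes with an end, and the count per member was 1.42 in dcp2-7 and 1.48 in wild type, against 1.22 and 1.21 over all genes. With 500 bases upstream, all 33 members had an end in each list, with 49 positions in dcp2-7 and 52 in wild type, and from 200 bases upstream to 50 bases inside the counts were 47 and 49, the same as to the gene end. No upstream ATG lay between the farthest capped end within 500 bases and the start in 32 of 33 members, RPN4 with its 245-base leader among them. The exception was RPN12, whose farthest end lay 459 bases upstream with 3 ATGs, and 734 of 4472 genes (16.4%) had such an ATG.

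Subunit mRNAs were abundant and close to each other in level. Levels are given as multiples of the library's median mRNA, per length of the gene. In the WT_S288C libraries the median subunit stood at 5.20 and 5.38 times the median mRNA, with 6.02 and 6.30 for the core genes and 4.61 and 4.53 for the regulator genes. Over the 24 rRNA-depleted libraries the SD of log2 levels among the 32 subunits was between 0.46 and 0.875, against 2.03 to 2.31 among all mRNAs tested.

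Of the core genes, those of the beta ring reached highest in WT_S288C. PUP3 had 7.47 and 7.80 times the median mRNA and PRE1 7.34 and 7.02, while PUP1, which encodes the trypsin-like peptidase, had 5.09 and 4.74. The alpha ring genes lay between 5.10 (PRE8) and 6.86 (PRE9). Among regulator genes, RPN1 (YHR027C) of the base, a scaffold that binds ubiquitin-like shuttle proteins, had 6.19 and 6.21, and RPN11, which encodes the deubiquitinase of the lid, had 2.95 and 2.69. RPN4 was at 1.79 and 1.81, higher than 67.5% of mRNAs but below every subunit except RPT2.

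RPT2 (YDL007W), which encodes a base ATPase that helps to open the core's gate, stood apart from the other ATPase genes in rRNA-depleted RNA. It was at 0.808 and 0.542 times the median mRNA in WT_S288C, where RPT1, the next lowest ATPase gene, was at 2.83 and 2.50. It was the lowest subunit in each of the 24 rRNA-depleted libraries. The longest stretch that RPT2 shares with an rRNA gene, 14 bases, is the longest among the members (10 to 13 in the others), and 93.2% of genes have a shorter one. The part of that stretch in the RPT2 level was not tested.

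**Figure D2:**
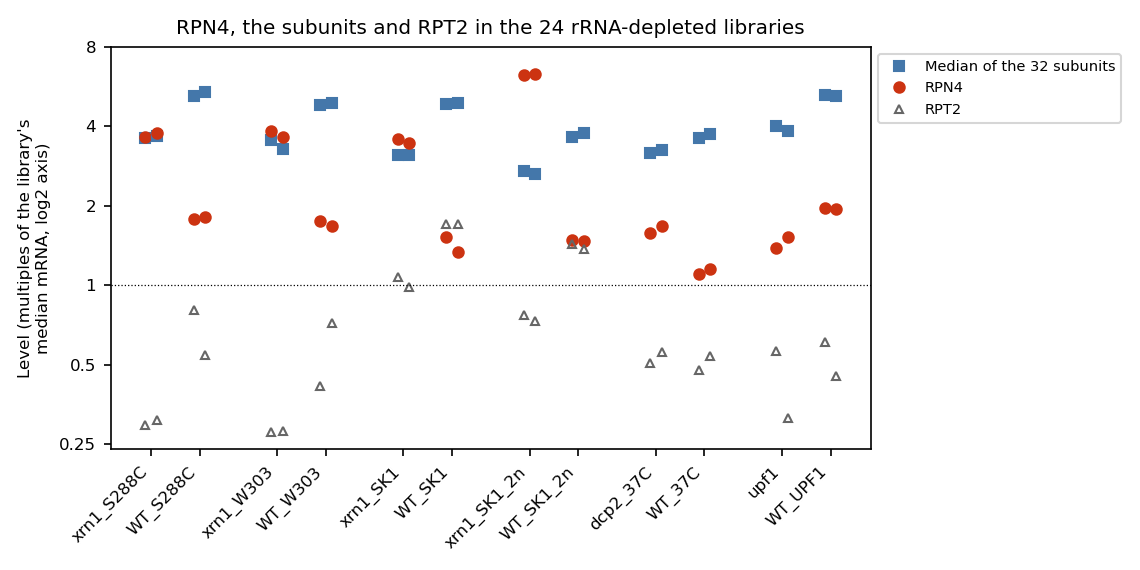
Level of RPN4, of the median subunit and of RPT2 in each rRNA-depleted library, as multiples of that library's median mRNA on a log2 axis, with 2 points (replicates) per group and each mutant left of its wild type. RPN4 reaches the median subunit in the xrn1 libraries of S288C, W303 and SK1 and exceeds it in those of SK1_2n, and lies below it in the others.

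RPN4 and the subunit genes moved apart in xrn1 cells of all 4 backgrounds. On the deposited scale RPN4 rose further than any of the 32 subunits in each of them, and relative to the median mRNA RPN4 rose while most subunits fell. RPN4 over the median subunit stood at 1.01 and 1.03 in xrn1 S288C cells, 1.08 and 1.11 in xrn1 W303, 1.15 and 1.11 in xrn1 SK1 and 2.31 and 2.39 in xrn1 SK1_2n. The wild types had 0.344 and 0.336 in S288C, 0.364 and 0.342 in W303, 0.314 and 0.272 in SK1 and 0.407 and 0.387 in SK1_2n. Every xrn1 library was above every wild-type library in this ratio, which does not depend on the scale.

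In S288C, RPN4 stood at 3.65 and 3.78 times the median mRNA in xrn1 cells, against 1.79 and 1.81 in wild type. It rose by 1.05 on the mRNA-median scale (SE 0.0645, adjusted p = 3.41e-10) and by 2.81 on the deposited scale. In W303 it stood at 3.83 and 3.66 in xrn1 cells, against 1.76 and 1.67 in wild type, a rise of 1.13 (limma, SE 0.0645, adjusted p = 1.35e-10). In each background the 2 xrn1 libraries lay above both wild-type libraries.

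In haploid SK1, RPN4 had 3.58 and 3.47 times the median mRNA in xrn1 cells, against 1.52 and 1.34 in wild type, a rise of 1.30 (limma, SE 0.0645, adjusted p = 2.81e-11). In diploid SK1 it had 6.27 and 6.31 in xrn1 cells, against 1.48 and 1.46 in wild type, the largest rise of the 4 at 2.10 (limma, SE 0.0645, adjusted p = 2.31e-14). The interaction term of diploid minus haploid SK1 was 0.79 (SE 0.0912, adjusted p = 1.87e-06), while that of W303 minus S288C was 0.08 (SE 0.0912, adjusted p = 0.541). The term of haploid SK1 minus S288C, 0.26 (SE 0.0912, adjusted p = 0.0246), lost its call without WT_S288C replicate 2 (adjusted p = 0.0627), xrn1_S288C replicate 1 (0.0844), WT_SK1 replicate 2 (0.117) or xrn1_SK1 replicate 1 (0.0812), with the median of ratios (0.20, adjusted p = 0.081) and on the deposited scale (0.18, adjusted p = 0.476).

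The subunits moved as a tight group in these comparisons. On the deposited scale 32 of 33 members rose in xrn1 S288C cells (94.8% of the 5760 mRNAs tested), 33 in W303 (97.6%), 33 in SK1 (92.9%) and 33 in SK1_2n (97.2%). Their median changes were 1.27, 1.64, 1.10 and 3.04, below the mRNA medians of 1.58, 1.97, 1.55 and 3.14, with 26, 29, 30 and 22 of 32 subunits under those medians. The interquartile range among the subunits was 0.31, 0.37, 0.33 and 0.45, against 1.00, 1.00, 1.04 and 1.38 among mRNAs. The subunits other than RPT2 stand above at least 76.4% of mRNAs in WT_S288C. No mRNA set of like level was compared, here or in the other mutants, so the part of level in this narrow range was not tested. The member not called in xrn1 S288C cells was RPT2 (0.63, SE 0.302, adjusted p = 0.0588).

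**Figure D3:**
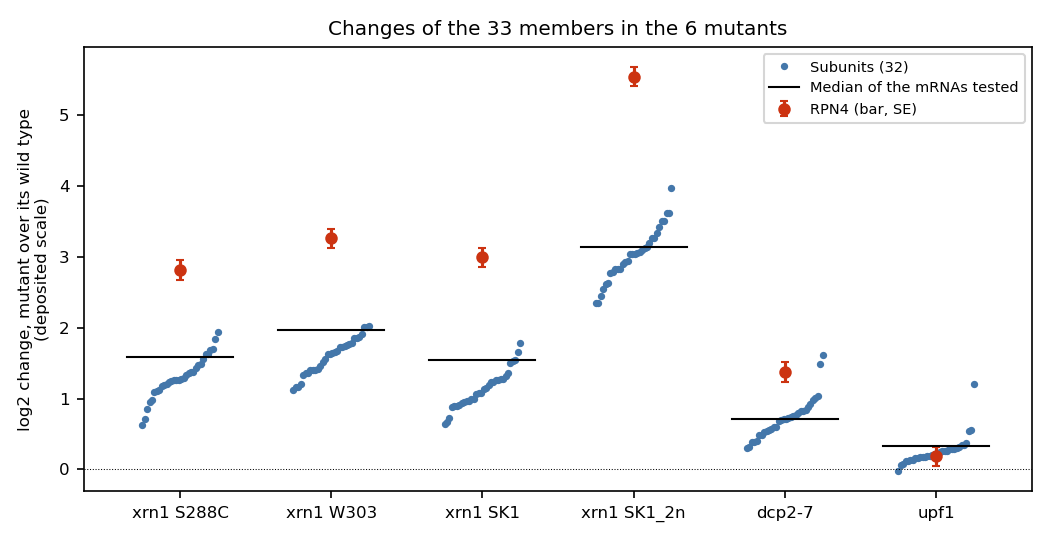
The log2 change of each of the 32 subunits (points in order of size), of RPN4 (bar, SE) and of the median mRNA (line) in each mutant over its wild type on the deposited scale. RPN4 lies above all subunits in the 4 xrn1 comparisons, above 30 of 32 in dcp2-7 and among them in upf1.

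On the mRNA-median scale 28 members fell in xrn1 S288C cells (46.7% of mRNAs), 30 in W303 (46.2%), 28 in SK1 (46%) and 24 in SK1_2n (53%). RPN4 was the 1 member that rose in S288C (27.7% of mRNAs), W303 (29%) and SK1 (31.2%), and it rose with 3 subunits in SK1_2n (28.6%). The subunit medians were -0.50, -0.49, -0.59 and -0.40, and the mRNA medians on this scale were -0.18, -0.16, -0.14 and -0.30, because equal medians of levels do not make the median change 0. Of the 32 subunits 19 fell in all 4 backgrounds, 10 in 3, 1 in 2 and 2 in 1.

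With libraries scaled by the median of ratios, an alternative chosen after the data were seen that brings the mRNA median change to within 0.0207 of 0 in these comparisons, 22, 25, 26 and 14 members fell in S288C, W303, SK1 and SK1_2n and 3, 1, 2 and 9 rose. PRE7 in S288C and RPN9 in S288C and W303 changed sign there. So did PRE8, PRE5, RPT4 and RPN10 in SK1_2n. Of the mRNAs called with the median of ratios, 50.8% were higher in S288C, 51.2% in W303, 49.8% in SK1 and 49.3% in SK1_2n. The share of all mRNAs called in each direction is not given for that scale.

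Core genes differed in how far they fell. PRE1, a beta ring gene, fell by 0.92, 0.97, 1.02 and 0.83 in S288C, W303, SK1 and SK1_2n, and PRE2, which encodes the chymotrypsin-like peptidase, by 0.65, 0.79, 0.81 and 1.09. PRE3, the gene of the caspase-like peptidase, had the largest fall of the 32 subunits in SK1_2n at 1.10 (limma, SE 0.0531, adjusted p = 7.26e-12). In the alpha ring SCL1 fell furthest in SK1, by 1.05 (limma, SE 0.0786, adjusted p = 4.05e-09), with levels of 2.75 and 2.83 in xrn1 cells against 5.75 and 5.80 in wild type. Against these, PRE8 stayed at 4.93 and 4.89 times the median mRNA in xrn1 S288C cells, against 5.10 and 5.20 in wild type, and was not called. PRE1, PRE2 and PRE8 were chosen after their values were seen.

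Among the base genes RPT2 had the largest fall in xrn1 S288C cells and RPN1 in W303. RPT2 was at 0.294 and 0.308 times the median mRNA in xrn1 S288C, against 0.808 and 0.542 in wild type, a fall of 1.14 (limma, SE 0.249, adjusted p = 0.000653). RPN1 was at 2.48 and 2.48 in xrn1 W303, against 4.93 and 5.03 in wild type, a fall of 1.01 (limma, SE 0.0610, adjusted p = 2.77e-10). In both pairs the xrn1 libraries lay below the wild-type ones.

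Chromosome 11 mRNAs rose by a median of 2.46 in xrn1 S288C cells on the deposited scale, against 1.54 on the other chromosomes, an offset of 0.92 that touches RPT1, the only member on that chromosome, and the pathway genes ADD66, UBA1 and UFD4. RPT1 rose by 1.94 there, which is 0.52 under the chromosome's median, and its interaction terms of -0.94 in W303 minus S288C (SE 0.168, adjusted p = 0.000587) and -0.92 in SK1 minus S288C (SE 0.168, adjusted p = 0.000243) include the S288C value with this offset. Whether the offset reflects more copies of the chromosome was not tested.

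In diploid SK1 12 of 14 core genes and 12 of 18 regulator genes fell on the mRNA-median scale, and 0 core and 3 regulator genes rose. With the median of ratios 6 core and 8 regulator genes fell and 2 and 6 rose, and the difference between core and regulator genes was not tested. RPN9 rose there on the mRNA-median scale by 0.52 (limma, SE 0.0526, adjusted p = 9.17e-08), with levels of 4.05 and 4.27 in xrn1 SK1_2n against 2.90 and 2.90 in wild type, and the lid gene RPN5 and the ATPase gene RPT3 (0.18 and 0.17) were the other 2 subunits that rose. Without xrn1_SK1_2n replicate 2, 2 members rose there in place of 4. In haploid SK1 the same genes fell, RPN9 by 0.16, RPN5 by 0.45 and RPT3 by 0.43. Diploid minus haploid, 13 members had a positive interaction term (20.1% of mRNAs) and 3 a negative one (42.9%), with a subunit median of 0.18 against an mRNA median of -0.20. RPN6 (YDL097C), a lid gene, had the largest at 0.76 (limma, SE 0.116, adjusted p = 3.15e-05), and RPN2 the lowest at -0.50 (limma, SE 0.124, adjusted p = 0.00202), with RPN1 and PRE3 the other negative ones. Without WT_SK1_2n replicate 1 the negative terms numbered 8. The interaction counts moved with the scale, to 33 positive and 0 negative on the deposited scale and 21 and 2 with the median of ratios. Of the mRNAs with a called term, 97.9% and 45.3% were positive in turn, and the mRNA medians were 1.55 and -0.05.

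Between haploid backgrounds fewer members passed the test of the difference. W303 minus S288C gave 3 members with a lower term (10.6% of mRNAs), RPT1, PRE3 and RPT6, and 0 with a higher one (11.5%) by limma, with 0 at an unadjusted p under 0.05 and 0 by voom on the recovered reads. SK1 minus S288C gave 4 higher (30.8%), RPN1, RPN2, RPN10 and RPN4, and 8 lower (23.2%), while on the deposited scale the counts were 0 and 2. RPN2 had the largest term at 0.53 (limma, SE 0.124, adjusted p = 0.00188), followed by RPN1 and RPN10 (0.51 and 0.50). The median of ratios gave 3 higher and 13 lower. Of the mRNAs with a called term, 42.1% were higher on the deposited scale and 50% with the median of ratios. The lower terms numbered 4 without WT_S288C replicate 1 and 5 without xrn1_S288C replicate 1, WT_SK1 replicate 1 or xrn1_SK1 replicate 1.

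**Figure D4:**
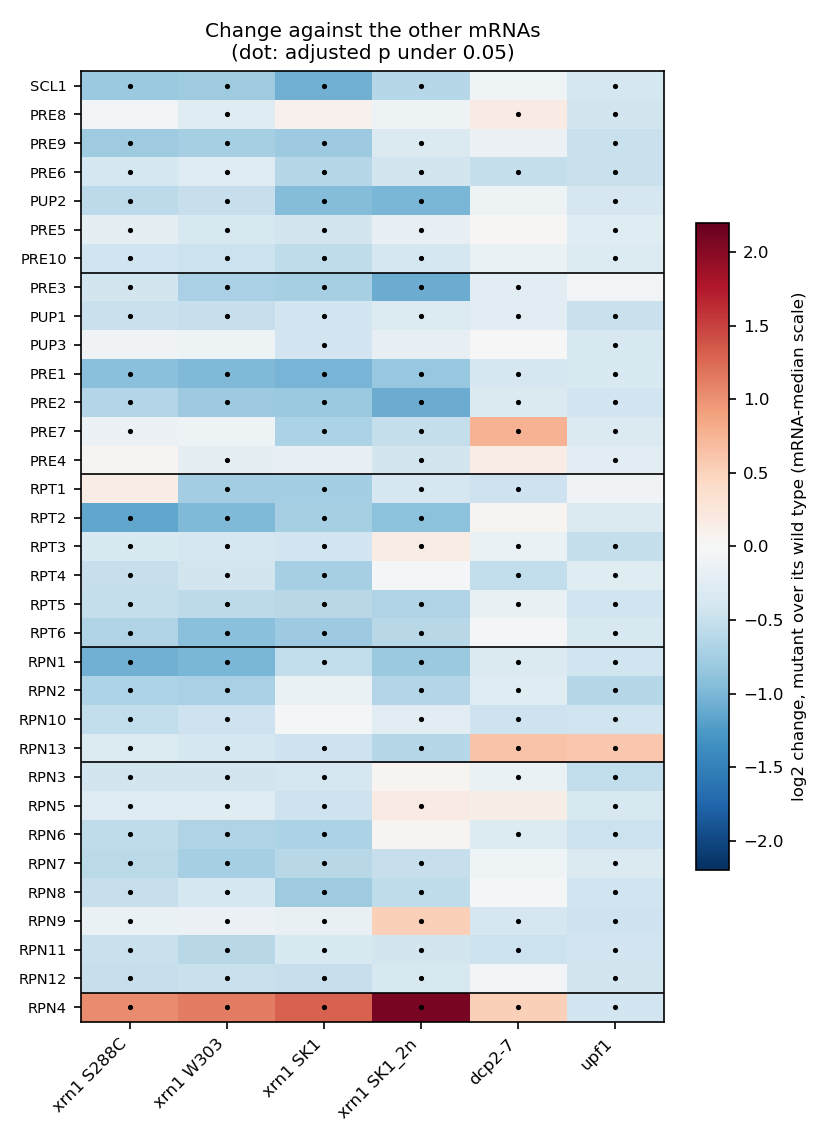
The log2 change of the 33 members (rows by role, RPN4 at the bottom) in the 6 mutants over their wild types on the mRNA-median scale, with a dot where the adjusted p was under 0.05. The RPN4 row is positive in the 4 xrn1 comparisons and in dcp2-7, most subunit rows are negative, and PRE7 and RPN13 are positive in dcp2-7.

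In dcp2-7 cells the RPN4 change was above that of 30 of the 32 subunits. RPN4 stood at 1.58 and 1.67 times the median mRNA, against 1.10 and 1.16 in WT_37C cells, and rose by 0.52 (limma, SE 0.0645, adjusted p = 2.98e-06). RPN4 over the median subunit was 0.496 and 0.511 in dcp2-7 cells and 0.307 and 0.310 in wild type, and the libraries did not overlap in either measure. In these cells 31 members rose on the deposited scale (80.2% of mRNAs), with RPN4 at 1.38 and a subunit median of 0.71, level with the mRNA median of 0.71.

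On the mRNA-median scale 4 members rose (23.4% of mRNAs) and 16 fell (42.1%) in dcp2-7 cells, and with the median of ratios the counts were 7 and 9. Of the mRNAs called with the median of ratios, 50.3% were higher. Values that follow are on the mRNA-median scale. PRE7 (YBL041W), a beta ring gene, stood at 7.75 and 7.84 times the median mRNA in dcp2-7 cells, against 4.64 and 4.55 in wild type, and rose by 0.76 (limma, SE 0.0548, adjusted p = 8.17e-09), which made it the highest subunit there. RPN13 (YLR421C), the gene of a ubiquitin receptor, stood at 6.11 and 6.54, against 4.29 and 3.87, and rose by 0.63, and PRE8 by 0.18. RPT4 had the largest fall at 0.54 (limma, SE 0.0788, adjusted p = 1.72e-05), with 1.96 and 2.14 in dcp2-7 cells against 2.92 and 3.04 in wild type.

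In upf1 cells the RPN4 change lay among those of the subunits. RPN4 stood at 1.38 and 1.53 times the median mRNA in upf1 cells, against 1.97 and 1.95 in wild type, and its ratio to the median subunit was 0.346 and 0.396 against 0.376 and 0.373, so the libraries overlap in the ratio. RPN4 fell by 0.43 on the mRNA-median scale (limma, SE 0.0645, adjusted p = 2.15e-05), where the subunit median was -0.39 and the mRNA median -0.29. Its change was 0.19 on the deposited scale (limma, SE 0.135, adjusted p = 0.260). On the deposited scale 4 members rose (47% of mRNAs), PRE3, PRE5, RPT1 and RPN13. The count was 2 without WT_UPF1 replicate 1 or upf1 replicate 1, 7 without upf1 replicate 2, and 7 with voom on the recovered reads.

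RPN13 stood out in upf1 cells. It was at 8.37 and 8.63 times the median mRNA there, the highest subunit, against 5.89 and 5.42 in wild type, and rose by 0.59 (limma, SE 0.0697, adjusted p = 1.64e-06). It was the 1 member that rose on the mRNA-median scale (21.3% of mRNAs), while 29 fell (54.2%), RPN2 by 0.63 (limma, SE 0.0873, adjusted p = 8.33e-06) furthest. The spread of the subunit changes was the narrowest of the 6 mutants, with an interquartile range of 0.13 against 0.61 among mRNAs.

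Wild-type cells at 37 °C had less of nearly every member than wild-type S288C cells at no stated temperature. On the mRNA-median scale 32 members fell (28.5% of mRNAs), RPN4 by 0.67 (limma, SE 0.0645, adjusted p = 6.49e-07) and PRE1 furthest of the subunits by 0.76 (limma, SE 0.0714, adjusted p = 4.95e-07), against an mRNA median of -0.04. The member not called was RPT2 (-0.39). By limma 0 members rose (19.6% of mRNAs), with 0 at an unadjusted p under 0.05 and 0 by voom on the recovered reads. Levels of PRE1, PRE2, RPN1 and RPN4 all lay lower in both WT_37C libraries, RPN4 at 1.10 and 1.16 against 1.79 and 1.81. The WT_37C and WT_S288C groups are separate sets of libraries, so temperature and set cannot be told apart.

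A second wild-type set of the same strain also differed from WT_S288C. WT_UPF1 against WT_S288C, both YAM1, had 12 members higher (37.1% of mRNAs) and 9 lower (23.2%) on the mRNA-median scale, 6 and 11 with the median of ratios, and 0 and 31 on the deposited scale. Of the mRNAs called, 54.6% were higher with the median of ratios and 1.81% on the deposited scale. On the mRNA-median scale the higher count was 4 without WT_S288C replicate 1, 5 without WT_UPF1 replicate 1 and 7 without WT_UPF1 replicate 2. PRE3 was highest at 0.37 (limma, SE 0.0531, adjusted p = 3.94e-05) and RPT1 lowest at -0.73 (limma, SE 0.119, adjusted p = 0.000127), and the subunit median was -0.03. RPN4 was 0.12 higher (SE 0.0645, adjusted p = 0.123). On the deposited scale all 32 subunits had a negative change in WT_37C and in WT_UPF1 against WT_S288C, between -0.80 and -0.30 with a median of -0.55 in WT_37C and between -1.38 and -0.28 with a median of -0.69 in WT_UPF1. The mRNA medians there differed, at -0.07 in WT_37C and -0.55 in WT_UPF1. Below these lay 32 of 32 subunits in WT_37C and 19 of 32 in WT_UPF1. On the mRNA-median scale the subunit changes lay between -0.76 and -0.26 in WT_37C and between -0.73 and 0.37 in WT_UPF1.

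Wild types of other backgrounds were also set against WT_S288C. WT_W303 had 10 members lower on the mRNA-median scale (20.7% of mRNAs) and 2 on the deposited scale, with PUP1 furthest on the mRNA-median scale at -0.41 (limma, SE 0.0665, adjusted p = 0.000182), and RPN4 had a change of -0.07 (adjusted p = 0.424). By limma 0 members were higher (17.2%), with 2 at an unadjusted p under 0.05 and 0 by voom. The lower count was 4 without WT_S288C replicate 1, 6 without WT_S288C replicate 2, 5 without WT_W303 replicate 1 and 6 without WT_W303 replicate 2. WT_SK1 had 2 higher (31.2%), RPT2 and PRE7 (1 without WT_S288C replicate 1 or WT_SK1 replicate 2), and 11 lower (32.2%), with RPN1 furthest at -0.63 (limma, SE 0.0610, adjusted p = 1.67e-07) and RPN4 at -0.33 (SE 0.0645, adjusted p = 0.000303). RPT2 was at 1.70 and 1.71 times the median mRNA in WT_SK1, against 0.808 and 0.542 in WT_S288C, a rise of 1.37 (limma, SE 0.249, adjusted p = 0.000174). The SK1 and W303 libraries were counted on the same coordinates as S288C, and the part of strain sequence differences in these values was not tested.

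Diploid SK1 wild type had lower subunit levels than haploid SK1 wild type. On the mRNA-median scale 23 members fell (26.7% of mRNAs) and RPN1, RPN2, RPT5 and PRE3 were the 4 that rose (40.9%; 2 without WT_SK1 replicate 1), with a subunit median of -0.37 against an mRNA median of 0.11. PRE6 (YOL038W), of the alpha ring, fell by 1.04 (limma, SE 0.0608, adjusted p = 1.82e-09), with 2.61 and 2.87 times the median mRNA in WT_SK1_2n against 5.74 and 5.53 in WT_SK1, and RPN1 rose by 0.36 (limma, SE 0.0610, adjusted p = 0.000101). RPN4 did not pass the test (0.04, adjusted p = 0.561). On the deposited scale the WT_SK1_2n libraries were low over all mRNAs, with a median change of -1.41, and all 33 members were lower there.

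Relative to the median mRNA, RPN4 was lower after Terminator in all 4 groups treated. It fell by 0.58 in xrn1 S288C cells (limma, SE 0.0485, adjusted p = 7.41e-07), 0.35 in WT_S288C (SE 0.0485, adjusted p = 9.18e-05), 0.31 in dcp2-7 (SE 0.0485, adjusted p = 0.000297) and 0.28 in WT_37C (SE 0.0485, adjusted p = 0.000811). The subunit medians were 0.30, 0.06, 0.08 and 0.04, and the mRNA medians 0.13, 0.04, 0.05 and 0.007. RPN4 over the median subunit became 0.544 and 0.587 in treated xrn1 RNA, against 1.01 and 1.03 untreated, and 0.262 and 0.268 in treated WT_S288C RNA, against 0.345 and 0.337 untreated. The treated xrn1 libraries still lay above both treated wild-type libraries in this ratio. RPN4 fell on the deposited scale by 1.81 in xrn1 cells and 0.44 in WT_S288C and was not called in dcp2-7 or WT_37C.

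Of the 33 members 23 rose (45.1% of mRNAs) and 5 fell (26.4%) after Terminator in xrn1 cells, 13 rose (32%) and 6 fell (26%) in WT_S288C, 13 rose (29.5%) and 6 fell (21.3%) in dcp2-7 and 9 rose (22.6%) and 5 fell (21.2%) in WT_37C, counted over the 5715 mRNAs of these 16 libraries. The xrn1 split was 17 higher and 8 lower with the median of ratios, and 1 and 32 on the deposited scale, where the mRNA median was -1.10. That scale also gave 3 members that rose and 2 that fell in WT_S288C, and 5 that rose and 0 that fell in dcp2-7 and in WT_37C. Of the mRNAs called on it, 1.98% were higher in xrn1 cells, 41.5% in WT_S288C, 84.1% in dcp2-7 and 88% in WT_37C. With the median of ratios 49.2% of those called were higher in xrn1 cells. In dcp2-7, 8 rose without dcp2_37C replicate 1 or dcp2_37C_Ter replicate 2 and 3 fell without dcp2_37C replicate 2, and in WT_37C 3 fell without WT_37C replicate 2 or WT_37C_Ter replicate 2. RPN4 and RPT4 were among those that fell in each of the 4 comparisons, RPT4 by 0.50, 0.43, 0.32 and 0.35.

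RPT2 had the largest rise in all 4 comparisons and lost its low place. It was at 2.14 and 2.27 times the median mRNA in treated xrn1 RNA, against 0.293 and 0.307 untreated, a rise of 2.88 (limma, SE 0.139, adjusted p = 1.00e-08). In WT_S288C it was at 3.44 and 3.86 in treated RNA, against 0.801 and 0.540 untreated, a rise of 2.47 (limma, SE 0.139, adjusted p = 1.01e-07), and the rises in dcp2-7 and WT_37C were 1.82 and 2.34. RPT2 levels in treated and untreated libraries did not overlap, and RPT4, not RPT2, was the lowest subunit in each of the 8 treated libraries. Per the labels, Terminator was used in place of RiboMinus depletion, so the effects of the 2 steps cannot be told apart. In the 8 treated libraries the SD of log2 levels among the subunits was between 0.348 and 0.562, against 0.571 to 0.761 in the untreated ones. The untreated SDs include RPT2 at its low level. The SD without RPT2 was not computed, so a tighter group of the other subunits is not shown.

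**Figure D5:**
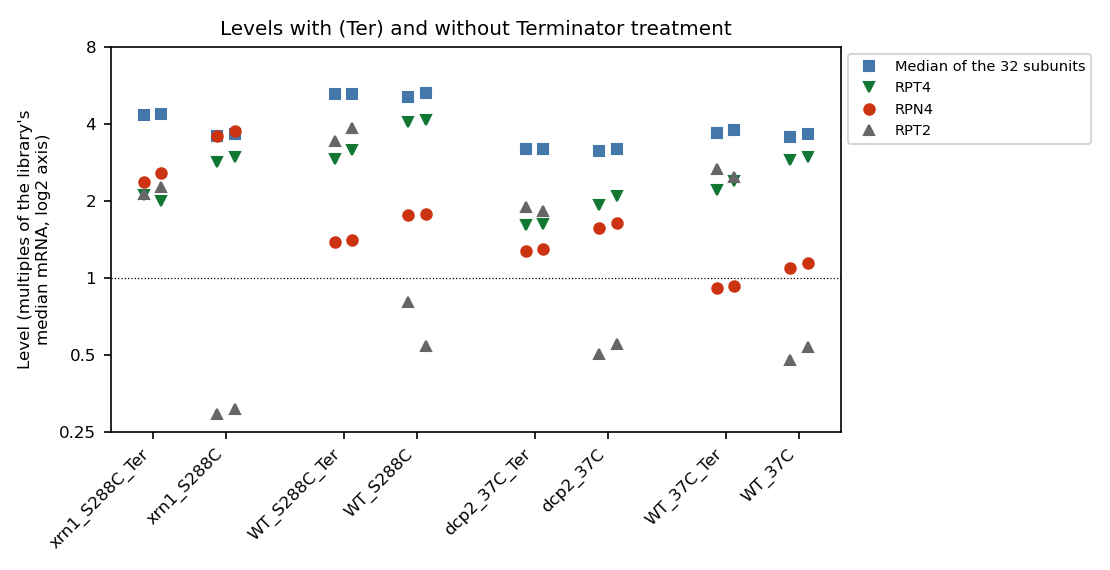
Levels of the median subunit, RPT4, RPN4 and RPT2 in Terminator-treated (Ter, left of each pair) and untreated libraries as multiples of the library's median mRNA on a log2 axis, 2 replicates per group. RPT2 moves from the lowest position to near RPT4 with treatment, and RPN4 lies lower in treated than in untreated libraries of each group.

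Calls of a different Terminator response in xrn1 and wild-type S288C cells depended on the scale, with 15 members called on the mRNA-median scale. The interaction term was positive in 12 (34.2% of mRNAs) and negative in 3 (16.2%), RPN9, PRE6 and RPN4, on the mRNA-median scale, and the counts were 4 and 7 with the median of ratios and 0 and 31 on the deposited scale. Of the mRNAs with a called term, 48.5% were positive with the median of ratios and 0.199% on the deposited scale. On the mRNA-median scale the negative count was 1 without WT_S288C replicate 1, xrn1_S288C replicate 2 or xrn1_S288C_Ter replicate 1. RPN1 had the largest term at 0.75 (limma, SE 0.0671, adjusted p = 5.77e-06), with RPN2 next at 0.74, RPN9 had the lowest at -0.29 (limma, SE 0.0757, adjusted p = 0.00930), and RPN4 had -0.23 (SE 0.0686, adjusted p = 0.0204). The RPN4 call was lost without WT_S288C replicate 1 (limma, adjusted p = 0.0583), xrn1_S288C replicate 2 (0.0964), WT_S288C_Ter replicate 2 (0.0512) or xrn1_S288C_Ter replicate 1 (0.0894). RPN1 stood at 4.28 and 4.14 times the median mRNA in treated xrn1 RNA, against 2.96 and 2.93 untreated, and at 5.23 and 5.09 in treated WT_S288C RNA, against 6.07 and 6.08 untreated. For dcp2-7 minus WT_37C, limma called 0 members higher (0% of mRNAs) and 0 lower (0.0175%), with 1 in each direction at an unadjusted p under 0.05 and 0 by voom.

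RPN1 and RPN2 are the members with an Xrn1-sensitive lncRNA on the opposite strand. They are also the longest members, at 2982 and 2838 nt. Whether either trait has a part in their Terminator terms was not tested. XUT0432 overlaps RPN1 by 346 nt and XUT0485 overlaps RPN2 by 216 nt, and the cryptic transcripts CUT620 and CUT550 overlap PRE9 by 425 nt and PRE1 by 226 nt. Over lncRNAs that overlap by at least 200 nt these are 4 of 33 members (12.1%), against 23.5% of mRNAs. An XUT overlaps 2 of 33 members (6.06%) by 1 nt or more, against 18.7% of mRNAs. XUT0485 rose by 0.93 in xrn1 S288C cells on the deposited scale (limma, SE 0.193, adjusted p = 0.000102), where RPN2 rose by 1.09, and XUT0432 had 0.24 (SE 0.199, adjusted p = 0.251), where RPN1 rose by 0.71. In W303, SK1 and SK1_2n XUT0432 rose by 1.03, 1.24 and 2.54, and XUT0485 by 1.31, 0.83 and 2.72. The median mRNA rose further than both XUTs in each background, by 1.58 in S288C, 1.97 in W303, 1.55 in SK1 and 3.14 in SK1_2n. The name XUT stands for a transcript that Xrn1 degrades, so a rise is part of its definition, and the libraries are strand-specific.

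Other genes of the pathway rose with most mRNAs on the deposited scale and split in direction on the mRNA-median scale. All 4 activator genes of RPN4 transcription, all 10 assembly chaperone genes and 11 of 12 ubiquitin and Cdc48 pathway genes rose on the deposited scale in xrn1 S288C cells (94.8% of mRNAs), and all genes of these 3 lists did in W303 (97.6%), SK1 (92.9%) and SK1_2n (97.2%). Of the 5 proteasome-associated genes all rose there in S288C, W303 and SK1_2n, and in SK1 4 rose and 1 fell. In dcp2-7 cells (80.2% of mRNAs) 4 activator, 10 chaperone, 8 ubiquitin pathway and 4 associated genes rose on that scale, and in upf1 cells (47%) 4, 9, 3 and 1 did. The counts and values that follow are on the mRNA-median scale unless another is named, with the shares of mRNAs that rose and fell beside the counts.

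Of the 4 activator genes (HSF1, YAP1, PDR1 and PDR3), 3 rose and 1 fell in xrn1 S288C cells (27.7% and 46.7% of mRNAs), 3 rose in W303 (29% and 46.2%), 3 rose in SK1 (31.2% and 46%) and 4 rose in SK1_2n (28.6% and 53%). YAP1 (0.48), HSF1 (0.56), PDR3 (0.75) and YAP1 (0.86) had the smallest adjusted p in turn. In dcp2-7 cells 1 rose and 1 fell (23.4% and 42.1%), PDR1 rising by 0.25, and in upf1 cells (21.3% and 54.2%) PDR1 was the 1 that fell (-0.23), while it rose by 0.39 on the deposited scale. The list median in xrn1 cells was 0.38, 0.23, 0.63 and 0.68, against the mRNA medians above.

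Of 12 genes of the ubiquitin and Cdc48 pathway, 6 rose and 6 fell in xrn1 S288C cells (27.7% and 46.7% of mRNAs). In W303 3 rose and 7 fell (29% and 46.2%), in SK1 4 and 5 (31.2% and 46%) and in SK1_2n 7 and 5 (28.6% and 53%). In dcp2-7 cells 2 rose and 9 fell (23.4% and 42.1%), and in upf1 cells 10 fell (54.2%). The S288C count includes UFD4 (0.32) and UBA1 (-0.43), which lie on chromosome 11 and were 0.38 and 1.12 under that chromosome's median on the deposited scale. MUB1, which encodes a partner of the ubiquitin ligase Ubr2 in the degradation of Rpn4, had the smallest adjusted p in all 4 xrn1 comparisons, with rises of 0.94, 1.12, 1.14 and 1.32 (limma, SE 0.0531 each). RAD23, a shuttle protein gene, had it in dcp2-7 (a fall of 0.71) and upf1 (a fall of 0.71), and was not called in either on the deposited scale (0.14 and -0.10). CDC48, the unfoldase gene, fell by 1.63 in xrn1 S288C cells but had a change of 0.14 on the deposited scale (SE 0.142, adjusted p = 0.343), and after Terminator there it rose by 1.78, or by 0.55 on the deposited scale. UBI4, the stress polyubiquitin gene, rose by 1.32 in WT_37C against WT_S288C. CDC48 in xrn1 cells was chosen after its values were seen.

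Of 10 assembly chaperone genes, 4 rose and 1 fell in xrn1 S288C cells (27.7% and 46.7% of mRNAs). The counts were 3 and 4 in W303 (29% and 46.2%), 2 and 2 in SK1 (31.2% and 46%) and 3 and 4 in SK1_2n (28.6% and 53%). In upf1 cells 4 rose and 2 fell (21.3% and 54.2%), and in dcp2-7 cells 5 rose (23.4%). The smallest adjusted p was that of ADD66 in S288C (0.93), which lies on chromosome 11 and was 0.23 above its median, NAS6 in W303 (-0.70), POC4 in SK1 (1.30), NAS6 in SK1_2n (-1.13), HSM3 in dcp2-7 (0.32) and IRC25 in upf1 (0.67). NAS6 rose on the deposited scale, by 1.43 in W303 and 2.32 in SK1_2n.

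Of 5 proteasome-associated genes, 4 fell in xrn1 S288C cells (46.7% of mRNAs) and 4 in W303 (46.2%). In SK1 2 fell (46%) and 1 rose (31.2%), and in SK1_2n 3 fell (53%) and 1 rose (28.6%). In upf1 cells 4 fell (54.2%), UBP6 by 0.40 with the smallest adjusted p. In dcp2-7 cells 1 rose (23.4%) and 1 fell (42.1%), ECM29 by 0.53. On the deposited scale UBP6 in upf1 cells and ECM29 in dcp2-7 cells were not called (0.21 and 0.32). SEM1, a small lid protein gene outside the 32 subunits, fell by 0.97 in W303, 1.98 in SK1 and 2.23 in SK1_2n. In SK1 and SK1_2n it fell further than any of the 32 subunits. On the deposited scale SEM1 rose by 1.16 in W303 and 1.22 in SK1_2n and fell by 0.29 in SK1. BLM10, an alternative cap of the core, fell by 0.89 in S288C and rose by 0.88 there on the deposited scale.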

How the data were processed

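Per the submitters' processing notes, TopHat was used for RNA-seq and cutadapt and Bowtie for CAGE. The sources used here do not give their versions, the counting rules or the genome build. The authors deposited 1 signal (read density) per feature and library, and density times length gave whole reads in 100% of values (tolerance 0.01), with equal sums over 77 snoRNAs. The CAGE lists deposited by the authors hold single positions. The 33 members have the same coordinates as R64, whose sequences were used. Here log2(density + pseudocount) went into linear models of limma (version 3.58.1, under R 4.3.3, with trended and robust variance; pseudocount at the 5th percentile of non-zero densities, 0.00577 and 0.00841; 9712 and 9615 features at or above it in 2 libraries or more), with all 24 rRNA-depleted libraries in 1 model (12 residual degrees of freedom) and 16 libraries in the Terminator model (8). Tests were two-sided. The code was tested on simulated data. Counting error is small beside replicate differences (chi-square per degree of freedom 3.24 to 72.4), and no replicates were identical. The p-values measure the spread between these libraries alone. Each gene's spread is pooled over all groups of its model, so an SE does not show the spread of the 2 groups compared. The chi-square was lowest in xrn1_W303 (3.24) and highest in WT_SK1_2n (72.4), whose own spread the pooled SE may understate. The members, lists and tests were chosen with earlier results of these data known. All members are described; each comparison names RPN4 and the subunits with the largest called rise and fall, and each list its gene with the smallest adjusted p. Pseudocount, filter, scale, replicate block, voom on recovered reads, CAGE and promoter windows and single libraries were varied. Python 3.11.15, pandas 2.3.3 and matplotlib 3.10.9 were used.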

Additional observations from a re-analysis of the deposited data

Results flagged for a closer look

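The effect of xrn1 deletion differed between backgrounds by the interaction term of the limma model on the mRNA-median scale. W303 minus S288C passed the test in 3 members, 0 higher (11.5% of mRNAs) and 3 lower (10.6%). SK1 minus S288C passed it in 12 members, 4 higher (30.8%) and 8 lower (23.2%), with RPN4 at 0.26. Diploid minus haploid SK1 passed it in 16 members, 13 higher (20.1%) and 3 lower (42.9%), with RPN4 at 0.79. By the same kind of term the Terminator response differed between xrn1 and wild-type S288C cells in 15 members. Of these 12 were higher (34.2%) and 3 lower (16.2%), with RPN4 at -0.225. The SK1 minus S288C and Terminator terms of RPN4 each lost their call without any 1 of 4 libraries, and the SK1 minus S288C term also with the median of ratios (0.20, adjusted p = 0.081 by limma) and on the deposited scale (0.18, adjusted p = 0.476 by limma).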

How the results depend on the processing

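The rises of RPN4 in the xrn1 and dcp2-7 comparisons kept their call under every alternative run. With voom, 7 members rose in upf1 cells (deposited scale), and 2 in WT_SK1_2n. A pseudocount of a 10th gave 2 higher in xrn1 SK1_2n and 5 lower for SK1_2n minus SK1. At the 25th percentile the higher counts were 2 in xrn1 SK1, 8 in xrn1 SK1_2n, 1 in WT_SK1_2n, 5 in WT_UPF1 and 21 (with 1 lower) for SK1_2n minus SK1, and PRE8 (0.19), PRE5 (0.13) and RPT4 (0.18) turned sign in xrn1 SK1_2n. With the median of ratios, chosen after seeing the data, 3 rose in xrn1 S288C, 2 in SK1, 9 (14 fell) in SK1_2n, 7 (9 fell) in dcp2-7, 1 in WT_W303, 2 in WT_SK1_2n, 6 in WT_UPF1 and 21 for SK1_2n minus SK1, 13 fell for SK1 minus S288C, 8 fell after Terminator in xrn1, and its response had 4 higher and 7 lower. Signs turned for PRE7 (0.0726) and RPN9 (0.0648) in S288C, RPN9 (0.0544) in W303, and PRE8 (0.18), PRE5 (0.12), RPT4 (0.27) and RPN10 (0.0334) in SK1_2n. The deposited scale gave 2 lower in WT_W303, 1 higher in WT_SK1, 0 higher in WT_SK1_2n (RPN4 -1.47, RPN1 -1.16), 0 higher and 31 lower in WT_UPF1 (RPN4 -0.53, PRE3 -0.28), 1 and 0 for W303 minus S288C, 0 and 2 for SK1 minus S288C and 33 and 0 for SK1_2n minus SK1 (RPN2 1.25). After Terminator it gave 1 and 32 in xrn1, 3 and 2 in WT_S288C, 5 and 0 in dcp2-7, 5 and 0 in WT_37C and 0 and 31 for the xrn1 response (RPN1 -0.40). The causes were not tested, and shares of all mRNAs called in each direction are not given for these alternative counts, which show only how the calls moved. Leaving out 1 library gave 2 to 7 higher in upf1 (deposited), 2 to 4 in xrn1 SK1_2n, 1 to 2 in WT_SK1, 2 to 3 in WT_SK1_2n and 4 to 9 in WT_UPF1, and 4 to 6 lower in WT_W303, 4 to 9 for SK1 minus S288C and 3 to 8 for SK1_2n minus SK1. After Terminator the ranges were 8 to 11 higher and 3 to 6 lower in dcp2-7, 3 to 4 lower in WT_37C and 1 to 3 lower for the xrn1 response. The replicate numbers only share a number (correlations of deviations -0.429 to 0.203). With the replicate block 30 members rose in dcp2-7 (deposited scale), 15 fell there (mRNA-median scale) and 1 was higher in WT_W303, and no other count moved by over 1.5 times. With 2 libraries a group, small changes of the low-level gene RPT2 (SE 0.249) could not be resolved.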
